A study of Mus musculus with 48 samples.

Results

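Ret, Aldh1a1, Pitx3, Nr4a2, En1, Foxa2, Foxa1 and Lmx1b are genes by which midbrain dopamine neurons are recognised, and their levels are described here across 4 brain tissues and 6 times of day. The rule that picks them uses their symbols and no measured value, although the set was proposed with earlier results of these data known, and each was read from the 1 row of the deposited table annotated with that symbol alone. These 8 genes stand among 22180 genes with 1 symbol, of which 17274, all 8 included, had a mean level high enough to be tested. The microarrays held RNA of male C57BL/6 mice, whose age is not given in the sources used here, whose day had 12 h with lights on and 12 h with lights off. The tissues, cut from chilled coronal slices, were the midbrain region that holds the dopamine neurons (SN/VTA, substantia nigra and ventral tegmental area together), the habenula (HAB), the striatum (STR) and the prefrontal cortex (PFC). Collection went on at 4-h steps through 2 days, so that 3 Zeitgeber times (ZT, counted in hours from lights on) fell in the light phase (3, 7, 11) and 3 in the dark phase (15, 19, 23). Each of the 48 arrays held RNA pooled from 3 mice of the same time, so there were 12 arrays per tissue and 2 per tissue and time, replicate 1 being of the earlier 24-h cycle and replicate 2 of the later one. The labels name no transgene and no treatment, and the 4 tissues share strain, sex and lighting. They do not say whether the 4 tissues of one collection hour came from the same mice. The tissue tests hold no term for the hour. With the hour as a block, an alternative chosen after seeing the data, no tissue call of the 8 genes changed.

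Midbrain dopamine neurons arise from the floor plate of the embryonic midbrain. The forkhead factors Foxa1 and Foxa2 and the homeodomain factors Lmx1b and En1 act early in this lineage, Nr4a2 (Nurr1, an orphan nuclear receptor) and Pitx3 (a homeodomain factor) then switch on genes of dopamine synthesis and transport, and several of these factors stay on in the adult neuron. Ret, the signalling receptor of the GDNF family of growth factors, and Aldh1a1, an aldehyde dehydrogenase that makes retinoic acid and clears reactive aldehydes, mark the mature neurons, Aldh1a1 most of all those of the ventral substantia nigra.

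Levels are the deposited values on the log2 scale, on which a difference of 1 is a factor of 2. Array medians over all rows lay between 5.84 and 6.07. Over the genes tested, arrays of the same tissue and time correlated at 0.982 or more, and all 48 arrays correlated best with an array of their own tissue. The SN/VTA label was checked on dopamine neuron markers: Slc6a3 (the dopamine transporter) averaged 11.61 ± 0.20 (SD, n = 12) in SN/VTA and between 6.00 and 6.26 in the other tissues, and Th (tyrosine hydroxylase) 10.94 ± 0.20 against at most 7.18 in any other array. Other cell types differed between the tissues as well. Of 6 oligodendrocyte markers tested, 4 were at least 1 unit higher in SN/VTA than in the mean of the other 3 tissues, and the log2 of their summed levels ran from 13.02 to 13.30 in SN/VTA, 11.30 to 11.83 in PFC, 11.99 to 12.21 in STR and 12.04 to 12.91 in HAB. Of 5 astrocyte markers 1 was that much higher, with sums of 12.15 to 12.31 in SN/VTA and 11.47 to 12.23 elsewhere. Of 3 thalamus markers 2 were that much higher, with a median difference of 1.88 and sums of 10.63 to 11.46 in SN/VTA, 8.05 to 8.32 in PFC, 9.02 to 9.25 in STR and 10.21 to 12.01 in HAB. Of 3 markers of subthalamic and supramammillary neurons, which lie in front of the midbrain, 2 were that much higher, with a median of 1.04 and sums of 8.30 to 8.64 in SN/VTA and 6.89 to 8.02 elsewhere. Of all genes tested, 2.25% were that much higher in SN/VTA with an adjusted p under 0.05 in limma. Of 4 choroid plexus markers none met this. Their sums ran from 9.36 to 12.15 in SN/VTA, 8.48 to 9.03 in PFC, 8.74 to 11.95 in STR and 10.66 to 13.60 in HAB. The part of glia, of choroid plexus and of neighbouring regions in the tissue differences below was not tested. In whole tissue, a lower level can come from fewer cells of a type or from less RNA per cell, and these cannot be told apart.

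Promoter sequence is printed for 3 of the genes. En1 and Foxa1 were taken because they hold a match to a searched motif, and Nr4a2 as the gene whose level was highest outside SN/VTA. RefSeq windows (GRCm38.p6) of 250 bases before the start site were at hand for 7 of the 8 genes, 10 windows in all. Each was searched on both strands for 5 motifs: the E-box CACGTG, which clock and other basic helix-loop-helix factors bind, the forkhead motif GTAAACA, the homeodomain core TAATTA, the bicoid-type homeodomain site TAATCC, and the nuclear receptor half-site AAGGTCA. None of the matches overlapped another motif. Matches are in capitals, written 5′ to 3′ on the strand of the gene. The En1 window lies at chr1:120602237-120602486 on the plus strand, the Foxa1 stretch of 30 bases at chr12:57546234-57546263 on the minus strand, and the Nr4a2 window at chr2:57124004-57124253 on the minus strand.
En1: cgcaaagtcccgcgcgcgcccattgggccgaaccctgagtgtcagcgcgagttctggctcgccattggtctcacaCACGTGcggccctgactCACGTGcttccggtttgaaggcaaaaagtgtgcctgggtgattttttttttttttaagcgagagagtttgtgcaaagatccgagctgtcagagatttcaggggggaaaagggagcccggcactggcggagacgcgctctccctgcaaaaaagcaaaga
Foxa1: tatactgctttGTAAACAaagtgagggcca
Nr4a2: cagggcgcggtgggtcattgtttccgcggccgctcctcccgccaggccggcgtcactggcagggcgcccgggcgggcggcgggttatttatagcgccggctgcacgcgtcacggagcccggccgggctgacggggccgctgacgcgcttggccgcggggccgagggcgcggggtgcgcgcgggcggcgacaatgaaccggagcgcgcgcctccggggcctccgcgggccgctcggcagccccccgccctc
The 2 E-boxes of En1 began 175 and 158 bases before the start, and 6.02% of all 32851 windows of this length held at least 1. The forkhead match of Foxa1 began 141 bases before the start site used for its window, and 3.17% of all windows held one. That window (chr12:57546112-57546361) lies inside the annotated span of the gene (chr12:57540628-57548029), not upstream of its 5′ end. The windows of the other genes held none of the 5 motifs, which says only that these letters were not found there. The Nr4a2 window is made of G and C to 80.0%, against 56.0% in En1 and a median of 52.4% over all windows. A match describes the sequence and was not tied to the levels below.

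The tissue comparison asked which of the identity genes set SN/VTA apart from its target and partner regions. Ret, Aldh1a1, Foxa1 and En1 were called higher in SN/VTA than in the mean of PFC, STR and HAB, by 3.28-fold to 7.01-fold, and in each of them all 12 SN/VTA arrays lay above all 36 others. Nr4a2, Foxa2, Lmx1b and Pitx3 differed by less than 1 unit. A call required an adjusted p under 0.05 (limma, Benjamini-Hochberg over all genes tested) and a difference of at least 1, which 3.55% of all genes met in either direction and 2.25% met as higher in SN/VTA, against 4 of the 8 identity genes. The median difference was 1.24 over the 8 genes and 0.05 over all genes tested. Without overlap between SN/VTA and all other arrays, in the upward direction, were the same 4 of 8 genes and 8.9% of all genes. With each array centred on its median, the median of all genes shifted to 0.20 and the calls split into 639 higher and 143 lower, against 389 and 224 on the values as deposited, and the same 4 identity genes were called. The residual spread is that between pools of mice, so the tests measure differences between these pools.

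**Figure D1:**
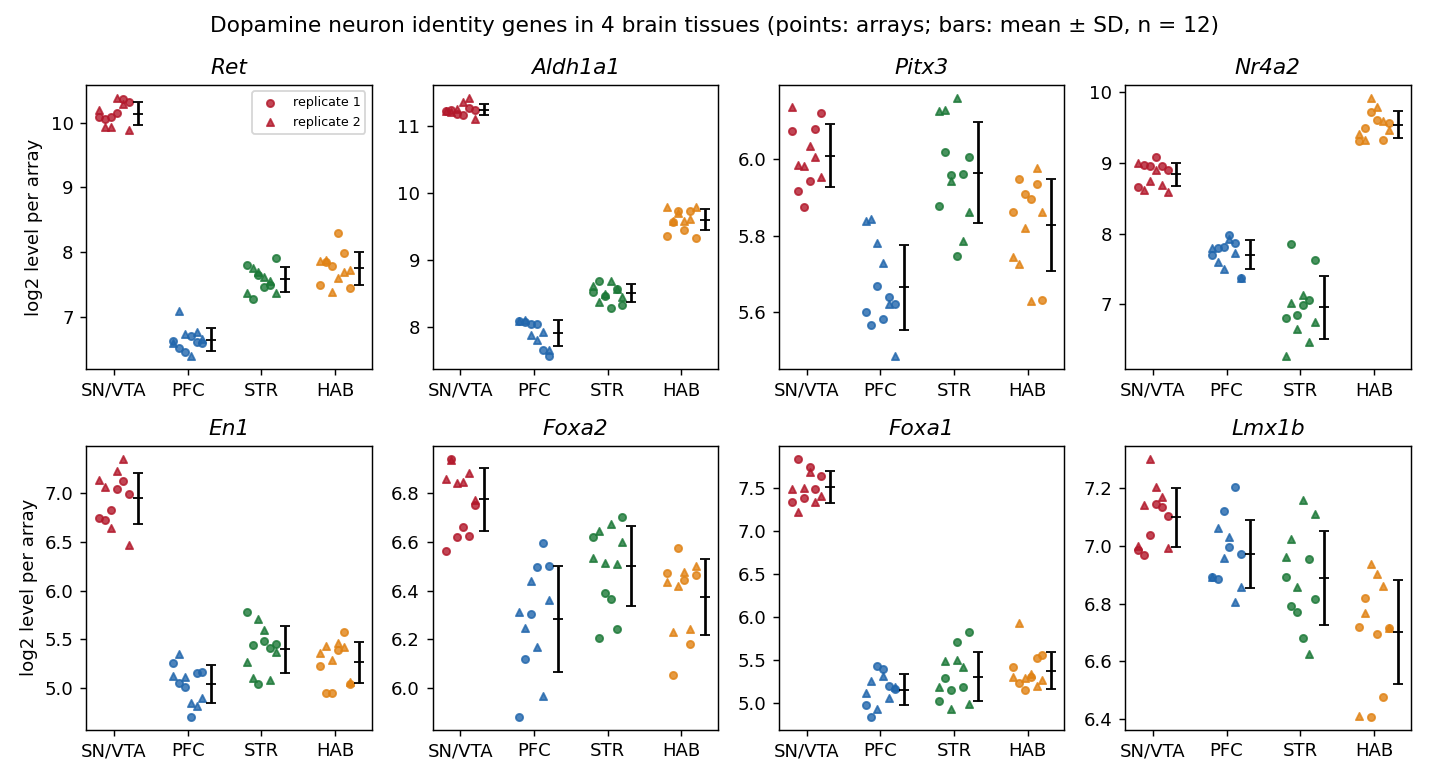
Level of each identity gene on the log2 scale (vertical axes, a separate range for each gene) in the 12 arrays of each tissue, circles for replicate 1 and triangles for replicate 2, with mean ± SD beside them. Ret, Aldh1a1, En1 and Foxa1 separate SN/VTA from every other array, Nr4a2 is highest in HAB, and Pitx3, Foxa2 and Lmx1b overlap between tissues.

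Ret, the receptor tyrosine kinase through which GDNF and neurturin signal, showed the largest of these differences (probe set 17470119). Its levels in SN/VTA ran from 9.89 through a median of 10.12 to 10.38. In PFC they ran from 6.40 through 6.63 to 7.09, in STR from 7.28 through 7.59 to 7.91 and in HAB from 7.39 through 7.76 to 8.29. SN/VTA stood alone, with a gap between its lowest array and the highest array of any other tissue. The difference from the mean of the other tissues was 2.81 ± 0.07 (SE), 7.01-fold, with an adjusted p of 5.96e-24 in limma. Against single tissues it was 3.49 ± 0.09 over PFC, 2.55 ± 0.09 over STR and 2.39 ± 0.09 over HAB. PFC was lowest, by 0.93 below STR (adjusted p = 6.85e-11 in limma), while STR and HAB differed by 0.17 ± 0.09, which missed the threshold (adjusted p = 0.0874 in limma).

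Aldh1a1, the retinaldehyde dehydrogenase of ventral dopamine neurons, varied little within SN/VTA, with an SD of 0.08 over 12 arrays (probe set 17358103). There it ran from 11.12 through a median of 11.24 to 11.43. It ran from 9.34 through 9.61 to 9.80 in HAB, from 8.28 through 8.51 to 8.70 in STR and from 7.57 through 7.99 to 8.12 in PFC. The 4 tissues did not overlap at all in this gene, in the order SN/VTA, HAB, STR, PFC. SN/VTA exceeded the mean of the others by 2.57 ± 0.05 (5.93-fold, adjusted p = 2.89e-27 in limma), PFC by 3.33 ± 0.06 and HAB by 1.64 ± 0.06. HAB exceeded STR by 1.10 ± 0.06. Gpr37l1, a receptor of glial cells, had the profile most like it, with a Pearson r of 0.987 over the 48 arrays, a description that rests mainly on the 4 tissue means. Here and below, such profiles were sought among tested genes other than the identity genes. Predicted genes, clones, short RNAs and receptor families of smell and immunity were passed over. Aldh1a1 is also found in astrocytes. The astrocyte marker sums had medians of 12.3 in SN/VTA, 12.1 in HAB, 11.7 in STR and 11.6 in PFC. Their ranges in SN/VTA (12.15 to 12.31) and HAB (11.84 to 12.23) overlapped, and the part of astrocytes in the Aldh1a1 level was not tested.

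Foxa1, a pioneer factor of the forkhead family, differed most among the transcription factors (probe set 17281337). Its SN/VTA levels ran from 7.23 through a median of 7.49 to 7.84. Medians elsewhere were 5.17 in PFC, 5.24 in STR and 5.31 in HAB, and the highest of those 36 arrays reached 5.94. The difference from their mean was 2.23 ± 0.07 (4.68-fold, adjusted p = 1.71e-21 in limma). Outside SN/VTA the gene differed little. PFC and STR (0.16 ± 0.09, adjusted p = 0.115) and STR and HAB (0.07 ± 0.09, adjusted p = 0.497) missed the threshold in limma, and PFC lay 0.22 ± 0.09 below HAB (adjusted p = 0.0252), a call lost when any 1 of 5 arrays was left out. Of the genes compared, Slc6a3 had the profile most like that of Foxa1 over the 48 arrays (r = 0.972). Next came Chrna6, a nicotinic receptor subunit of dopamine neurons (0.968), and Pvalb, the calcium-binding protein parvalbumin of many inhibitory neurons (0.967).

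Its paralogue Foxa2, which acts with Foxa1 in the same lineage, differed far less (probe set 17392561). It ran from 6.56 through a median of 6.81 to 6.94 in SN/VTA, from 5.88 through 6.31 to 6.59 in PFC, from 6.21 through 6.52 to 6.70 in STR and from 6.05 through 6.44 to 6.58 in HAB. Of the 12 SN/VTA arrays, 8 lay above all other arrays and 4 overlapped with them. The difference of 0.39 ± 0.06 (1.31-fold, adjusted p = 2.46e-07 in limma) was beyond the spread between pools but below 1 unit. Each of the 3 tissues lay below SN/VTA, STR by 0.28 ± 0.07, HAB by 0.40 ± 0.07 and PFC by 0.49 ± 0.07, and HAB differed beyond the threshold neither from STR (adjusted p = 0.0968 in limma) nor from PFC (0.225).

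En1, the engrailed homeodomain factor that keeps midbrain dopamine neurons alive in the adult, was the second transcription factor past 1 unit (probe set 17216676). It ran from 6.47 through a median of 7.02 to 7.36 in SN/VTA, against 4.71 through 5.08 to 5.35 in PFC, 5.04 through 5.43 to 5.78 in STR and 4.95 through 5.32 to 5.58 in HAB. The lowest SN/VTA array lay above every other array. The difference was 1.71 ± 0.07 (3.28-fold, adjusted p = 2.13e-19 in limma). The PFC mean of 5.04 was under the 5.05 that the filter on low values asks of a mean over all arrays, so part of the contrast is set against levels near the bottom of the scale. STR and HAB were not told apart (0.13 ± 0.08, adjusted p = 0.160 in limma). The profiles most like En1 were those of Ddc, the enzyme that makes dopamine from its precursor (r = 0.965 over 48 arrays), Kctd9 (0.956) and Th (0.955).

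Nr4a2 was the one identity gene whose level was highest outside SN/VTA (probe set 17385374). HAB ran from 9.30 through a median of 9.52 to 9.91, SN/VTA from 8.59 through 8.89 to 9.07, PFC from 7.37 through 7.76 to 7.98, and STR from 6.27 through 6.92 to 7.85. All HAB arrays lay above all SN/VTA arrays, and these above all arrays of PFC and STR, which overlapped with each other. HAB exceeded SN/VTA by 0.70 ± 0.10 (1.63-fold, adjusted p = 1.59e-07 in limma). SN/VTA exceeded PFC by 1.13 ± 0.10 and STR by 1.88 ± 0.10, and PFC exceeded STR by 0.75 ± 0.10 (adjusted p = 3.99e-08 in limma). With HAB among the tissues averaged, the SN/VTA difference was 0.77 ± 0.08 (1.70-fold, adjusted p = 3.88e-10 in limma). Nt5dc3 (r = 0.956), Sipa1l2 (0.944) and Tanc1 (0.941) had the profiles most like it over the 48 arrays, all highest in HAB.

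Pitx3, which in the adult brain is known as a factor of midbrain dopamine neurons, had the smallest of the SN/VTA differences (probe set 17365331). It ran from 5.87 through a median of 6.00 to 6.14 in SN/VTA, from 5.49 through 5.63 to 5.84 in PFC, from 5.75 through 5.96 to 6.16 in STR and from 5.63 through 5.86 to 5.98 in HAB. No SN/VTA array lay above all others. SN/VTA exceeded the mean of the other tissues by 0.19 ± 0.04 (1.14-fold, adjusted p = 1.54e-04 in limma), PFC by 0.34 ± 0.05 and HAB by 0.18 ± 0.05, but STR by only 0.04 ± 0.05 (adjusted p = 0.429 in limma). The difference from HAB missed the threshold without replicate 2 (0.14, adjusted p = 0.0615 in limma). The comparison with STR depended on the scaling: with each array centred on its median it was 0.23 (adjusted p = 1.38e-04), and after quantile normalization 0.23 (1.76e-04). No detection calls were used, so how much of a level near 6 is signal is unknown.

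Lmx1b, a LIM homeodomain factor of dopamine and serotonin neuron development, lay in a band of less than 1 unit over all 48 arrays (probe set 17384190). It ran from 6.97 through a median of 7.12 to 7.30 in SN/VTA, from 6.80 through 6.96 to 7.20 in PFC, from 6.63 through 6.87 to 7.16 in STR and from 6.41 through 6.72 to 6.94 in HAB. Every SN/VTA array lay above every HAB array, whereas 2 lay above all PFC arrays and 3 above all STR arrays. The difference from the mean of the others was 0.24 ± 0.05 (1.18-fold, adjusted p = 2.10e-04 in limma). SN/VTA and PFC differed by 0.13 ± 0.07, which missed the threshold (adjusted p = 0.0891 in limma) but passed it with arrays centred on their medians (0.24, adjusted p = 9.86e-04). SN/VTA exceeded STR by 0.21 ± 0.07 (adjusted p = 0.00567 in limma), a call lost without replicate 1 (0.18, adjusted p = 0.0561). PFC and STR missed the threshold as well (adjusted p = 0.253 in limma), and HAB was lowest, 0.18 ± 0.07 below STR (adjusted p = 0.0156 in limma), a call lost with arrays centred on their medians (0.14).

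Set against each tissue in turn, 5 of the 8 genes were called higher in SN/VTA than in PFC (background 6.18%) and 5 higher than in STR (3.24%), in both cases Ret, Aldh1a1, Nr4a2, En1 and Foxa1. Against HAB 4 were called higher (background 1.58%), all of these but Nr4a2. These 3 comparisons share the SN/VTA arrays. With arrays centred on their medians, 82.1% of the calls against STR and 64.1% of those against HAB were higher in SN/VTA, against 62.5% and 44.2% as deposited. Between the other tissues 3 genes (Ret, Aldh1a1 and Nr4a2) were called lower in PFC than in HAB (background 3.2%), 2 (Aldh1a1 and Nr4a2) lower in STR than in HAB (2.14%), and none between PFC and STR, where 6.23% of all genes were called and where the limma p was under 0.05 before adjustment in 6 of the 8 and in 13058 of all 17274 genes. The call of Ret in PFC against HAB (-1.10) ended without replicate 1, where the difference was -0.98. In either direction 9.33%, 5.18% and 3.58% of all genes were called for SN/VTA against PFC, STR and HAB, 5.68% for PFC against HAB and 3.42% for STR against HAB. With no size required, an adjusted p under 0.05 in limma was met by 7 of the 8 genes for SN/VTA against PFC (background 75.1%), 7 against STR (75.9%) and 8 against HAB (67.7%). It was met by 6 for PFC against STR (73.9%), 7 for PFC against HAB (72.4%) and 4 for STR against HAB (70.4%).

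**Figure D2:**
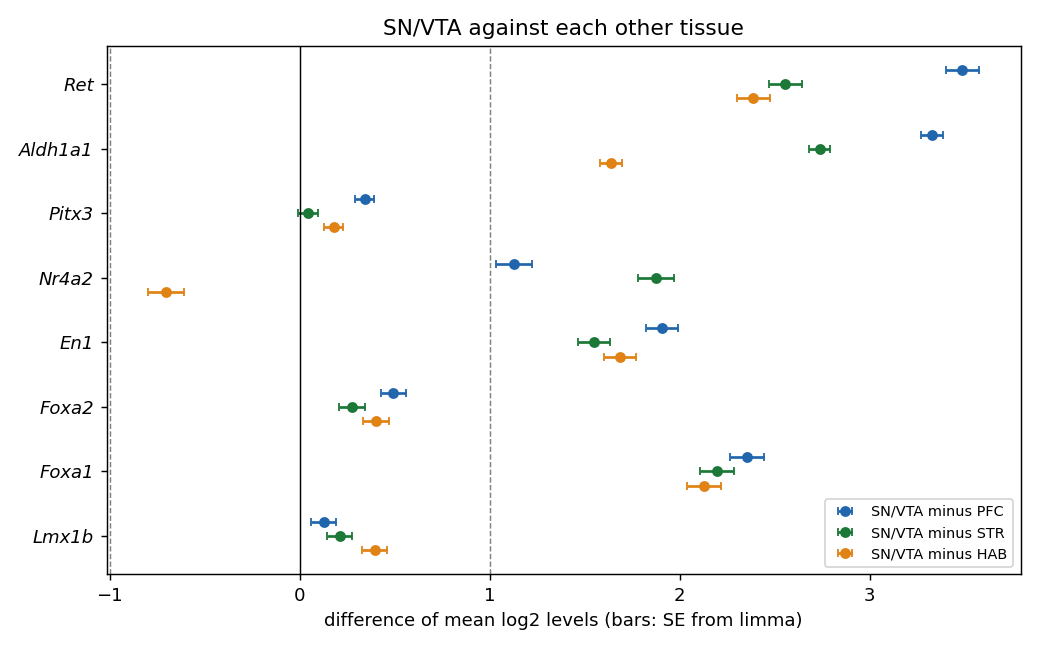
Difference of mean log2 level between SN/VTA and PFC (blue), STR (green) and HAB (orange) for each identity gene, with SE from limma as bars and dashed lines at 1 and -1. Nr4a2 is the only gene with a point below 0, for HAB, and the points of Pitx3, Foxa2 and Lmx1b all stay under 1.

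Over the 48 arrays the identity genes fell into profiles of unequal likeness, given here as a description that rests on 4 tissue means. Ret correlated with Aldh1a1 at 0.948, with En1 at 0.946 and with Foxa1 at 0.941, whereas Nr4a2 correlated with Ret at 0.41, with Pitx3 at 0.04 and with Lmx1b at -0.18. The profiles most like that of Ret were Lrig1 (0.982), which encodes a membrane protein that restrains growth factor receptors, and Glra1 (0.981), a glycine receptor subunit. For Foxa2, Pitx3 and Lmx1b the best likeness was lower, 0.782 with Smim17, 0.787 with Mtch1 and 0.725 with Lancl3.

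The genes around the identity genes in their pathways were counted next, from lists that hold none of the 8 and that were drawn up, like the set itself, with earlier results known. Of 9 genes of dopamine synthesis and transport, 6 were called higher in SN/VTA and none lower, with a median difference of 1.79. Slc6a3 differed by 5.50 ± 0.05, Th by 4.23 ± 0.06, Slc18a2 (the vesicular monoamine transporter) by 3.94 ± 0.06 and Ddc by 2.36 ± 0.04. Of 20 receptors, channels and subtype genes of dopamine neurons, 10 were called higher and none lower, with a median of 1.01, among them Chrna6 (3.60 ± 0.07), Slc17a6 (a vesicular glutamate transporter, 2.37 ± 0.09), Tacr3 (a tachykinin receptor, 1.99 ± 0.08) and Calb2 (calretinin, 1.98 ± 0.06). Over all genes tested 2.25% were called higher, and the median was 0.05.

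Of 13 tested GDNF family ligands, co-receptors and Ret adaptors, none was called in either direction, with a median of 0.15, against 3.55% of all genes called. An unadjusted p under 0.05 in limma was met by 10 of the 13 and by 13006 of all 17274 genes, so that calls in this comparison turned on the size of 1 unit. The largest differences were those of the adaptor Grb10 (0.78 ± 0.04), the docking protein Dok5 (0.56 ± 0.04), the ligand Nrtn (neurturin, 0.54 ± 0.06) and Ncam1 (0.51 ± 0.03), a cell adhesion molecule that can bind GDNF. Of 18 aldehyde dehydrogenases and genes of retinoid handling none was called, against the same 3.55%, with a median of -0.02 and an unadjusted p under 0.05 in 11. The largest here were Aldh1l1 (an astrocyte enzyme, 0.95 ± 0.03), Rxra (a retinoid receptor, 0.71 ± 0.04), Rarb (-0.43 ± 0.05), whose mean of 9.01 in STR was its highest, and Dhrs3 (a retinal reductase, 0.42 ± 0.05).

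Among 14 other factors and signals of dopamine neuron development, 1 was called higher and 1 lower, with a median of 0.23. Of all genes 3.55% were called in either direction. Ebf3, a factor of early neuronal differentiation, was higher by 2.28 ± 0.05, and Bcl11a, a zinc finger factor, lower by 1.46 on the log2 scale (a difference of -1.46 ± 0.05). En2 and Lmx1a, paralogues of En1 and Lmx1b, differed by 0.97 ± 0.08 and 0.90 ± 0.09, short of 1 unit. Of 8 tested paralogues of the identity genes, 2 were called, both lower: Nr4a1 (-1.57 ± 0.06) and Nr4a3 (-1.40 ± 0.09), immediate early genes of the Nr4a2 family. Nr4a1 was lower in SN/VTA (7.89) than in PFC (9.93), STR (9.71) and HAB (8.74), and Nr4a3 was highest in HAB (8.82) and PFC (8.25). STR thus held the lowest mean of Nr4a2 and a mean of Nr4a1 close to that of PFC.

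**Figure D3:**
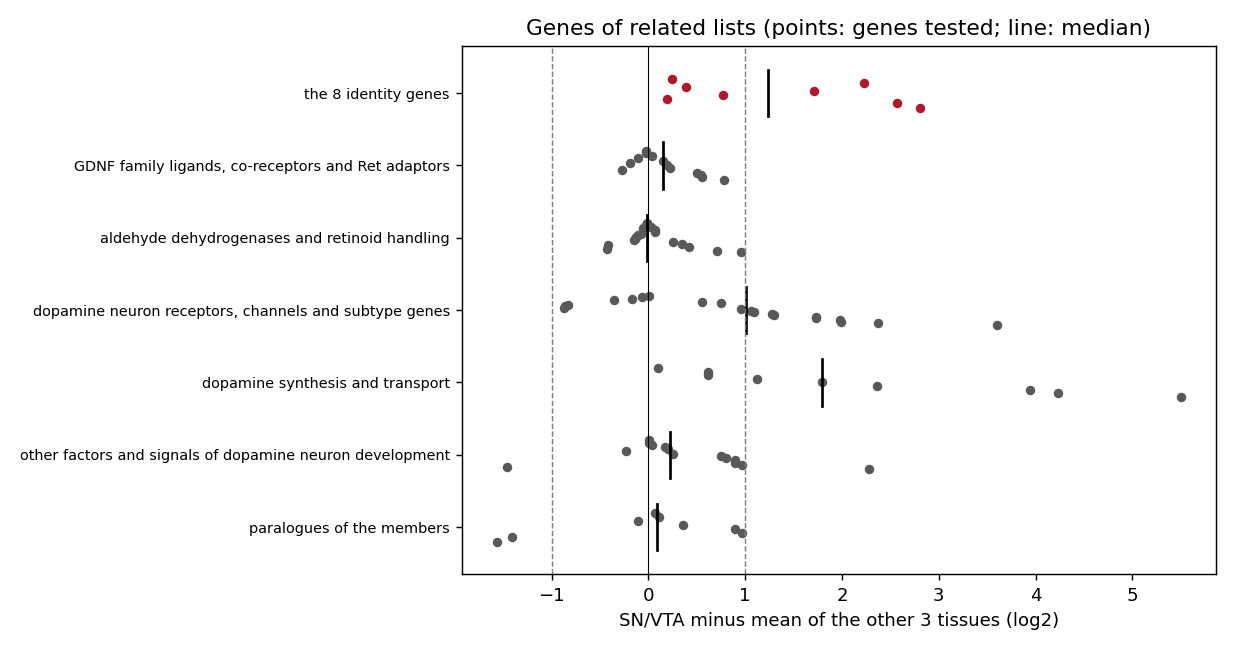
Difference of SN/VTA from the mean of the other 3 tissues on the log2 scale (horizontal axis) for the 8 identity genes (red) and the tested genes of 6 related lists (grey), each point a gene and each black line a median, with dashed lines at 1 and -1. Genes of dopamine synthesis reach 5.50, while no point of the GDNF or aldehyde dehydrogenase lists passes 1 or -1. En2 and Lmx1a stand in 2 lists.

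The times of day were compared to ask whether the identity genes follow the day. No rhythm was called in any of the 8 genes in any tissue (24-h cosine, limma, adjusted p under 0.05, 12 arrays a tissue). The share of all genes called was 0.162% in SN/VTA, 0.179% in PFC, 0.0174% in STR and 0.0174% in HAB, so that a count of 0 among 8 is near the background. At an unadjusted p under 0.05 the counts were 1 (Lmx1b) in SN/VTA, 2 (Aldh1a1 and En1) in PFC, 0 in STR and 1 (Nr4a2) in HAB, against 1705, 2001, 1467 and 1089 of all 17274 genes. In SN/VTA the fitted amplitudes, from mean to peak, ran from 0.05 in Aldh1a1 to 0.16 in En1, and the smallest adjusted p was 0.488 in limma, for Lmx1b.

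Ret in SN/VTA illustrates the size of these swings. Its replicates 1 and 2 read 10.36 and 10.29 at ZT3, 10.31 and 9.89 at ZT7, 10.09 and 10.19 at ZT11, 10.05 and 9.93 at ZT15, 10.08 and 9.93 at ZT19, and 10.14 and 10.38 at ZT23. The gap between replicates at ZT7 (0.42) was wider than the range of the 6 time means (0.33). The fitted curve peaked at ZT2.8 with an amplitude of 0.15 ± 0.05 (adjusted p = 0.521 in limma). En1 had the larger fitted amplitude, 0.16 ± 0.09, with its peak at ZT1.6 (adjusted p = 0.761), and its replicates at ZT7 were 0.52 apart. The fitted peaks of Slc6a3 (ZT1.5), Th (ZT2.2) and Ddc (ZT2.5) lay at similar hours, and none of these 3 genes passed the threshold either. Of the 5 dopamine neuron markers, which include these 3, 4 had an unadjusted p under 0.05 in limma, with a median amplitude of 0.18. Of all 17274 genes 1705 had such a p. Aldh1a1, with the narrowest spread, kept its 6 time means between 11.18 and 11.35.

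**Figure D4:**
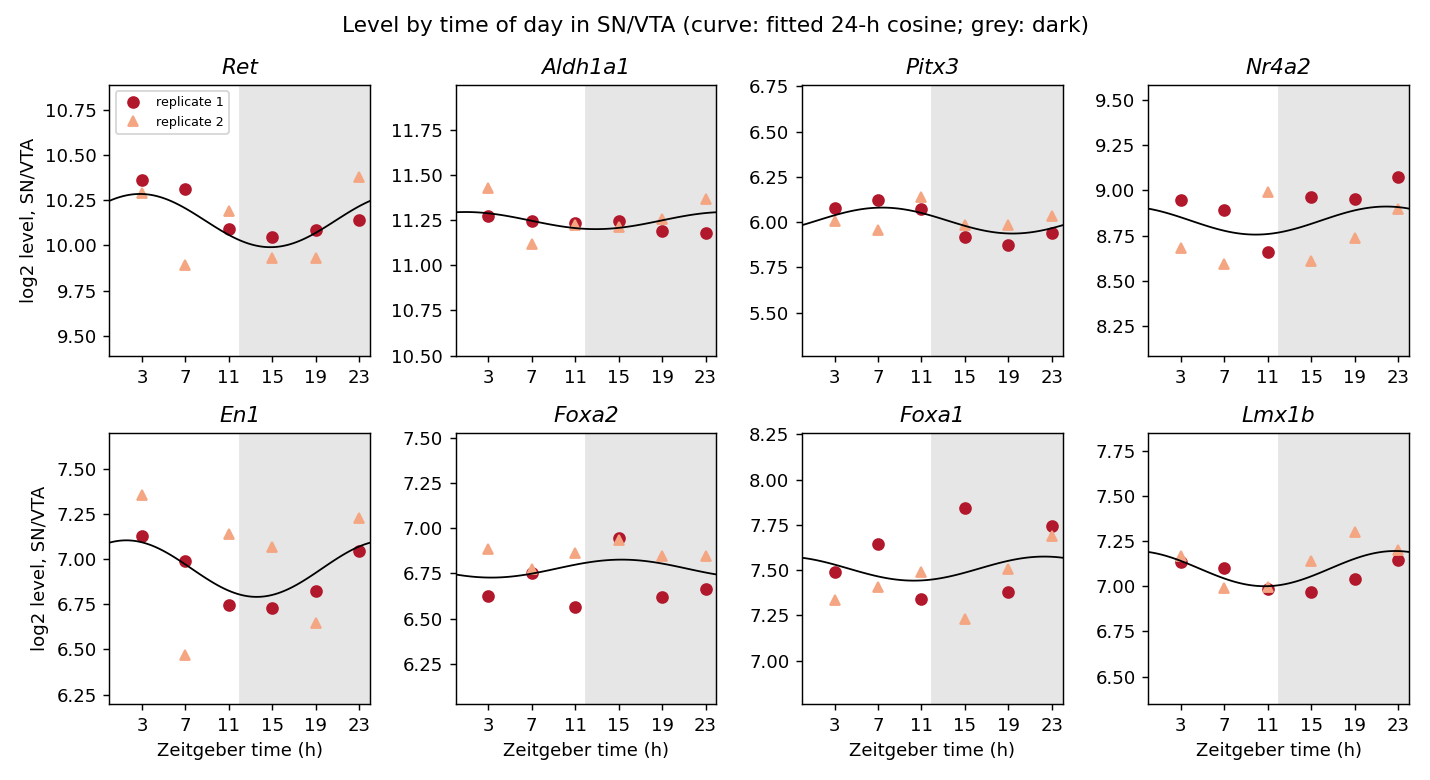
Level in SN/VTA on the log2 scale against Zeitgeber time (h) for each identity gene, over a span of 1.5 units in every panel, with replicate 1 as dark circles, replicate 2 as light triangles, the fitted 24-h cosine as a line and the dark hours shaded. Replicates at one time are often as far apart as the times are, up to 0.61 for Foxa1 at ZT15.

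In the other tissues the largest fitted amplitudes were those of Aldh1a1 in PFC (0.19 ± 0.06, peak at ZT16.1, adjusted p = 0.319 in limma), En1 in PFC (0.18 ± 0.06, ZT12.5, 0.337) and Nr4a2 in HAB (0.18 ± 0.06, ZT21.5, 0.764). Nr4a2 also had the smallest adjusted p for a rhythm shared by the 4 tissues, 0.447 in limma, with an amplitude of 0.11 ± 0.05 and a peak at ZT21.0. No identity gene was called in the shared rhythm, where 5.55% of all genes were, nor in the difference of rhythms between tissues (0.0289% of all genes), and none had an unadjusted p under 0.05 in either. Dark minus light was called for none of them in any tissue, with 0.0521% of all genes called in SN/VTA, 0.376% in PFC, 0.347% in STR and 0.122% in HAB. The only value with an unadjusted p under 0.05 was that of Aldh1a1 in PFC (0.17 ± 0.08). The tissue differences were present at every time of day: SN/VTA minus the mean of the others ran over the 6 times from 2.59 to 2.97 in Ret, from 2.48 to 2.66 in Aldh1a1, from 2.15 to 2.29 in Foxa1 and from 1.55 to 2.00 in En1. For Foxa2 that difference ran from 0.24 at ZT7 to 0.69 at ZT15.

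Dhrs3, which reduces retinal, was the 1 gene of the retinoid list called rhythmic in SN/VTA, with an amplitude of 0.19 and a peak at ZT2.9 (adjusted p = 0.0299 in limma). This call was kept in 1 and lost in 11 of the 12 omissions of a single SN/VTA array (adjusted p from 0.0497 to 0.0978), and it was lost with arrays centred on their medians (0.0905). It was also lost with no filter (adjusted p = 0.0730 in limma), in the fit over all arrays (0.537) and without either replicate. It was kept with quantile normalization (0.00951), the filter at the 50th percentile (0.0115), rows averaged (0.0306), a replicate block (0.0321) and a trended robust variance (0.00258). Aldh1a1 itself had an amplitude of 0.05 ± 0.03 in SN/VTA on the values as deposited (adjusted p = 0.828 in limma).

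Whether the identity genes vary together within SN/VTA was examined over its 12 arrays, in 44 relations of the genes with each other, with Slc6a3 and with the oligodendrocyte gene Mog. None passed an adjusted p of 0.05 by permutation, and 7 were under 0.05 before adjustment. Of the 28 pairs of identity genes 21 correlated positively, from -0.19 to 0.76. The closest relation was that of Ret with Slc6a3 (r = 0.84, Spearman rho 0.78, permutation p = 0.00122, adjusted p = 0.0537). Its r was 0.90 without the 2 arrays farthest from the median of Slc6a3. It was 0.64 within replicate 1 (exact permutation p = 0.161) and 0.94 within replicate 2 (exact permutation p = 0.0111). Over the 6 differences between replicates of one time it was 0.66 (adjusted p = 0.631 by exact permutation). After each array was centred on its median this relation passed the threshold (r = 0.85, adjusted permutation p = 0.0334). En1 followed Slc6a3 with r = 0.76 and Ret with r = 0.76, while Foxa1 (0.22) and Pitx3 (0.25) followed it less and Foxa2 had r = -0.32. Pitx3 ran with Mog (r = 0.73, unadjusted permutation p = 0.00844).

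Nr4a2 in STR had the widest spread of any identity gene in any tissue, with an SD of 0.44 over 12 arrays. Replicates 1 and 2 read 7.07 and 6.47 at ZT3, 7.62 and 6.75 at ZT7, 6.81 and 6.27 at ZT11, 7.85 and 7.01 at ZT15, 6.85 and 6.65 at ZT19, and 6.999 and 7.13 at ZT23. Replicate 1 was the higher at 5 of 6 times, and the arrays of ZT15 and ZT7 in replicate 1 stood highest. Replicate 2 minus replicate 1 was -0.48 ± 0.10 (unadjusted p = 5.19e-05, adjusted p = 0.166 in limma), and without either of the ZT23 arrays -0.61 (adjusted p = 0.00697), which passed the threshold. No gene was called in that comparison over all arrays, against 1222 with an unadjusted p under 0.05. Over all arrays the difference between replicates was called in no identity gene in any tissue, with background shares of 0% in SN/VTA and STR, 0.0116% in PFC and 1.12% in HAB.

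The cortex lies against the striatum, and Nr4a2 marks some deep cortical neurons, so Nr4a2 was set against markers of cortical projection neurons over the 12 STR arrays, a comparison added after its values were seen. Slc17a7, the vesicular glutamate transporter of cortical neurons, was highest in the same arrays, at 9.05 in ZT15 and 8.97 in ZT7 of replicate 1, and lowest, like Nr4a2, in ZT11 of replicate 2 (7.28). The correlation was r = 0.86 (Spearman rho 0.81, adjusted permutation p = 9.60e-04 over 6 relations). It was 0.70 without the 2 arrays farthest from the median of Slc17a7, 0.92 within replicate 1 and 0.77 within replicate 2. Neurod6 followed with r = 0.76 (adjusted permutation p = 0.00945), while Tbr1 (0.64, 0.0504) and Fezf2 (0.56, 0.0904) missed the threshold. The paralogues Nr4a1 (r = 0.16) and Nr4a3 (r = 0.12) had weaker relations, with an adjusted permutation p of 0.710 for each. The log2 of the summed levels of 4 cortical markers ran from 8.22 to 9.59 in STR and from 12.06 to 12.29 in PFC, and the part of cortical tissue in the STR spread was not tested.

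**Figure D5:**
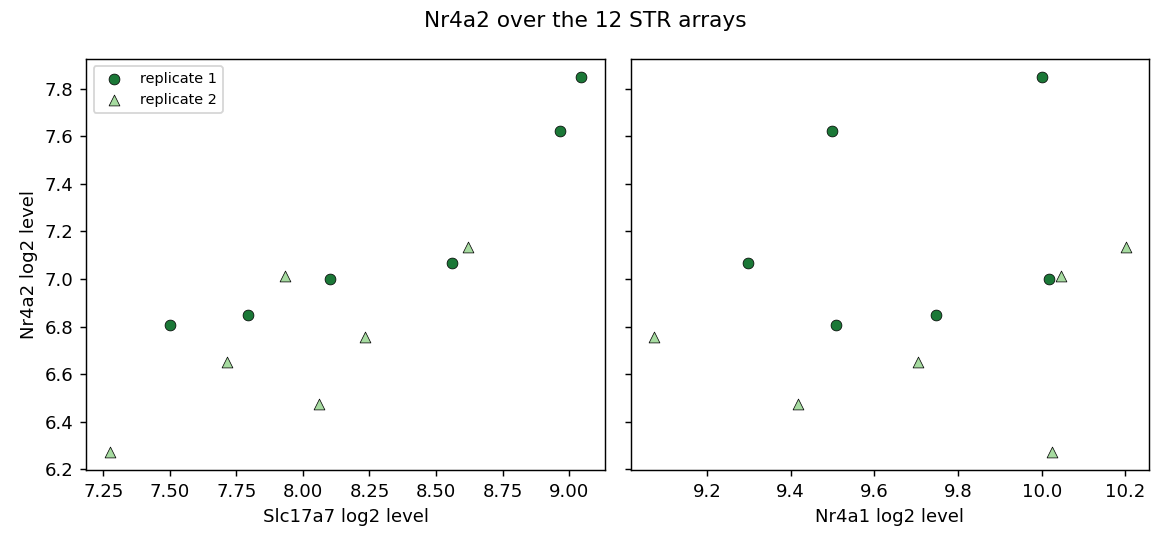
Nr4a2 level (vertical axis, log2) against Slc17a7 (left) and Nr4a1 (right) over the 12 STR arrays, dark circles for replicate 1 and light triangles for replicate 2. Arrays with more Slc17a7 had more Nr4a2 (r = 0.86), and r was 0.16 with Nr4a1.

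In HAB, where Nr4a2 was highest, it was set against 6 habenula markers in the same way, also after its values were seen. It correlated with Nwd2 (r = 0.86, adjusted permutation p = 0.00276), Chrna3 (0.67, 0.0498) and the homeodomain factor Pou4f1 (0.64, 0.0498), and 3 of 6 relations passed the threshold. Tac2 (0.55), Chrnb4 (0.36) and Gng8 (-0.04) did not. Over the 6 differences between replicates of one time, the relation was 0.53 with Nwd2, 0.35 with Pou4f1 and 0.26 with Gng8, and it was negative with Tac2 (-0.24), Chrna3 (-0.48) and Chrnb4 (-0.61). None of these 6 passed the threshold, with an adjusted p of 0.636 for each by exact permutation. The HAB arrays also held markers listed for other tissues. Their log2 sums were 11.01 to 11.71 for 4 cortical, 10.82 to 11.42 for 4 hippocampal and 10.21 to 12.01 for 3 thalamic genes. The sum of 4 choroid plexus genes varied most, from 10.66 to 13.60. Its median was 13.40, against 12.76 for the sum of the 6 habenula markers. Whether the markers of other tissues came from neighbouring tissue or from habenula cells was not tested. The part of these tissues in the HAB level of Nr4a2 and in its spread was not tested either.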

How the data were processed

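Each array measured pooled total RNA of 3 mice (RNeasy, WT Pico kit, biotin label, Affymetrix Mouse Gene 2.0 ST, per the labels' protocols). The deposited values, from 1.09 to 13.65, were taken as the authors' log2 levels per probe set; how they were background-corrected, summarised and normalized is not given in the sources used here. The number of arrays limits the precision, and whether pools of one time shared housing is not stated, so p-values measure the spread between pools.

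Of 41345 probe set rows, 23521 were annotated with 1 symbol and 1814 with several, which were left out. The row with the highest mean stood for a gene, and genes with a mean of at least 5.05, the 30th percentile of rows, were tested (17274). R 4.3.3 with limma 3.58.1 (lmFit, eBayes) and the data.table package (1.17.8) fitted 24 groups of tissue and time, and 24-h cosine and sine terms within each tissue (9 residual degrees of freedom) or over all arrays. All adjusted p-values are Benjamini-Hochberg over the genes tested. The scripts were tested on simulated data. Correlations used 100000 permutations, or all 720 for 6 values, two-sided, in Python 3.11.15 with numpy 2.4.6 and scipy 1.17.1, adjusted within each family. Figures used matplotlib 3.10.9. Replicate numbers mark the 24-h cycle, per the labels' collection hours, and so pair samples by cycle. Whether the tissues of one hour share mice is not stated. Deviations from group means of samples with the same number and tissue correlated at a mean r of 0.0357 over 60 pairs (-0.16 to 0.41). These pairs set different times of the same tissue together, so they cannot show whether tissues shared mice.

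Alternatives were other scalings, filters, rows per gene and variance models, a replicate block, the collection hour as a block (added after seeing the data) and leaving out arrays. Named were all 8 genes with Slc6a3, Th and Mog, the 4 largest differences of each related list, and for the profiles most like a member up to 3 genes with the highest r, passing over predicted genes, clones, short RNAs and receptor families of smell and immunity. The genes and lists were chosen with earlier results of these data known. The other genes named in the correlations within STR and HAB come from the marker lists or are paralogues, and were chosen after values were seen.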

Additional observations from a re-analysis of the deposited data

How the results depend on the processing

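Of the values of the 8 genes under the alternatives, 43 of 11151 crossed a threshold, none reversed as a called value, and 126 below the threshold changed sign. The 4 genes called higher in SN/VTA stayed at 4 without any single array or either replicate, and at 5, 5 and 4 against PFC, STR and HAB. With the filter at the 50th percentile, Pitx3, En1 and Foxa1 were no longer tested, so that 2 genes were called against the mean of the other tissues, 3 against PFC, 3 against STR and 2 against HAB, and without a size 4, 5 and 4 in SN/VTA against PFC, in SN/VTA against HAB and in PFC against HAB. Leaving out arrays moved the PFC against STR count between 0 and 1, as Ret reached -1.01 without replicate 2, the PFC against HAB count between 2 and 3, as Ret fell to -0.98 without replicate 1, and without a size the STR against HAB count between 2 and 5. The replicate difference in STR had 0 to 1 of the genes called, as given in the text. Among differences of under 1 unit, single arrays decided these calls: Foxa1 in PFC against HAB was lost (adjusted p up to 0.0829) without PFC ZT15 replicate 1, PFC ZT19 replicate 2, HAB ZT3 or ZT7 replicate 1 or HAB ZT15 replicate 2, the last of which also ended En1 there (0.0598). Lmx1b in STR against HAB was lost without STR ZT23 replicate 2 or HAB ZT19 replicate 1 (up to 0.0531), and Pitx3 there without STR ZT23 replicate 2 (0.0612). Gained were Ret in STR against HAB without STR ZT7 or ZT11 replicate 1, STR ZT15 replicate 2, or HAB ZT19 or ZT23 replicate 2 (down to 0.0184), Foxa2 and En1 there without STR ZT15 and ZT19 replicate 1 (0.0333 and 0.0405), Lmx1b in SN/VTA against PFC and Foxa2 in PFC against HAB without PFC ZT3 replicate 1 (0.0343 and 0.0396), and Foxa1 in PFC against STR without STR ZT7 replicate 2 (0.0146). Without a whole replicate, further calls under 1 unit changed. Without replicate 1, Lmx1b was lost in SN/VTA against STR (adjusted p 0.0561) and PFC against HAB (0.0717) and gained in SN/VTA against PFC (0.0314), Pitx3 was lost in PFC against HAB (0.381), and Foxa2 was gained in STR against HAB (0.0150). Without replicate 2, Pitx3 was lost in SN/VTA against HAB (0.0615) and STR against HAB (0.372), Foxa2 in PFC against STR (0.426), and En1 and Foxa1 in PFC against HAB (0.291 and 0.129), while Lmx1b was gained in PFC against STR (0.0283) and En1 in STR against HAB (0.0450). With all arrays kept, alternatives of the processing gained 5 such calls and lost 3. Not given above are gains of Ret in STR against HAB and of Lmx1b in PFC against STR. Pitx3 in STR against HAB was also lost under such alternatives. No member became rhythmic under any alternative run.

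The counts over all genes moved more. Rhythmic genes in SN/VTA numbered 13 with centred arrays, 12 with no filter, 50 with the stricter filter, 18 with the replicate block, 167 with a trended robust variance and 17 in the fit over all arrays. In PFC they numbered 20 with no filter, 77, 20 with the block, 231 and 239, in STR 5 with the stricter filter, 33 and 140, and in HAB 5, 9 and 49. Differences of rhythms numbered 3 with rows averaged and 8 with the trended variance. Dark minus light called 15 genes in SN/VTA with the trended variance and 40 in PFC with no filter. With the collection hour as a block it called 31 in PFC and 36 in STR. In STR it called 32 (centred), 141 (quantile), 36 (no filter), 121 (stricter filter) and 110 (trended), and in HAB 13 (centred) and 33 (trended). The replicate difference called 1 (centred) and 2 (quantile) in STR and 1 in PFC with rows averaged. The number of correlations called in SN/VTA was 1 with centred arrays. The cause was not tested. Only counts that moved by a large factor are given here. The replicate block moved no other count that far, and smaller changes are not listed. The collection hour as a block changed no call of the 8 genes.

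Leaving out arrays gave 0 to 11, 0 to 81, 1 to 81 and 0 to 139 genes for dark minus light in SN/VTA, PFC, STR and HAB, 0 to 21, 0 to 26, 0 to 3 and 0 to 5 for their rhythms, 70 to 989 for the shared rhythm, 0 to 7 for its difference, and 1 to 3, 0 to 3 and 115 to 421 for the replicate difference in PFC, STR and HAB. Without detection calls, the limit set by background is unknown for the lower levels.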
